A study of Homo sapiens with 11 samples.

Results

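The mitochondrial ribosomal protein genes were taken as every row of the count table whose Ensembl identifier maps to a protein-coding gene with the symbol MRPL or MRPS followed by a number and an optional letter. The rule found 78 of 58037 genes, 49 with an MRPL symbol (large subunit) and 29 with an MRPS symbol (small subunit), and all 78 passed the filter on low counts. The rule used names only and no measured value.

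RNA of a pair of human leukaemia lines, both of acute myeloid leukaemia (AML), was sequenced in 11 libraries. The groups were OCI-AML3-FLT3-ITD cells with 100 nM FHD-286 for 16 h (n = 2), OCI-AML3 cells with the same exposure (n = 3), OCI-AML3-FLT3-ITD control cells (n = 3) and OCI-AML3 control cells (n = 3). FHD-286 inhibits the products of SMARCA4 (BRG1) and SMARCA2 (BRM), which are the motor subunits of BAF complexes that reposition nucleosomes. OCI-AML3 is an established AML line with a mutated NPM1 gene, and the second line is named for an internal tandem duplication of the receptor kinase FLT3. The labels do not say how that duplication was introduced, whether the line is a single clone, or whether the control cells received a vehicle. They also do not say that replicates came from separate cultures, so p-values reflect only how much these libraries vary, and that variation may be technical. The second line is called the FLT3-ITD line here.

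Mitochondria translate the few proteins encoded in their own DNA, all of them core subunits of the respiratory chain and ATP synthase, on a ribosome of their own. Its RNAs are transcribed inside the organelle, whereas each of its proteins is encoded in the nucleus, made in the cytosol and imported. Part of these proteins descend from bacterial ribosomal proteins and the rest were acquired later. AML cells have been described as sensitive to inhibition of mitochondrial translation.

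Total counts ran from 58397190 to 79172389 per library, and the 78 genes took 0.391% to 0.516% of them. The library labelled FLT3-ITD control replicate 2 stood apart. Its FLT3 level was 53.3 CPM (counts scaled to a common library total after TMM normalisation), against 178 and 203 CPM in the other FLT3-ITD controls, and its WLS level was 0.0577 CPM, against 13.4 and 14.4 CPM. Its log2 CPM over the 78 genes had a correlation of 0.974 and 0.977 with its fellow controls, and every other replicate pair correlated at 0.995 or more. At FLT3 and WLS this library was near the OCI-AML3 controls, which had 41.1 to 43.3 CPM and 0 to 0.018 CPM. Whether its label is right was not tested, and it stayed in the group that label gives. It enters the estimate of spread shared by all comparisons, and also the mean of its own group. More genes were called in every comparison when it was dropped, and main counts are given with and without it. The sum of the 8 myeloid markers was lower with FHD-286. It was 101 to 103 CPM in treated FLT3-ITD cells, against 418 to 470 CPM in their controls, and 155 to 167 CPM in treated OCI-AML3 cells, against 570.2 to 628 CPM in theirs. Of the 6 markers that passed the filter, SPI1, LYZ, MPO and CD33 fell and ANPEP rose in both lines, and ITGAM fell in the FLT3-ITD line only. KIT and CD34 did not pass the filter. Whether the shift of these markers bears on the ribosomal protein genes was not tested. The 8 erythroid and megakaryocyte markers summed to at most 0.808 CPM, with 4 of them at 0 in every library. The lymphoid and the stromal and epithelial marker sums were almost entirely NCAM1, at 181 to 230 CPM, and PECAM1, at 4.78 to 31 CPM.

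FHD-286 lowered most of the mitochondrial ribosomal protein genes in OCI-AML3. Of the 78 genes, 61 fell and 2 rose by edgeR's quasi-likelihood test at a Benjamini-Hochberg adjusted p under 0.05, when 41.3% of all 18908 genes tested were called, with 21.5% lower and 19.8% higher. The median log2 fold change (FHD-286 over control) was -0.48 over the 78 genes, with quartiles of -0.65 and -0.27, and 0.01 over all genes. Changes were modest in size and ran from -1.23 to 0.83, and 3 genes changed at least 2-fold. Changes are relative to a composition factor (TMM), and with library totals in its place the median was -0.32 over the family and 0.17 over all genes. Without the library labelled FLT3-ITD control replicate 2, which enters the shared estimate of spread, 66 fell and 2 rose, when 58.8% of all genes were called, 29.8% of all genes being lower. In 67 genes all treated libraries lay below all control libraries and in 4 they lay above, against 33.2% and 32.8% of all genes tested. Bulk counts scaled to a common total give relative levels, so a change in cell number or in total RNA per cell cannot be seen in them.

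Summed over the 78 genes, the level was 4009, 3917 and 3907 CPM in OCI-AML3 cells with FHD-286, against 5489, 5198 and 5728 CPM in OCI-AML3 controls. It was 3712 and 3622 CPM in FLT3-ITD cells with FHD-286, against 4967, 3981 and 4270 CPM in FLT3-ITD controls. The treated libraries lay below the controls of their own line in both sums, and the lowest FLT3-ITD control was the library labelled replicate 2. The ratio of the MRPL sum to the MRPS sum was at least 1.59 in every treated and at most 1.56 in every control OCI-AML3 library. It was 1.58 in both treated FLT3-ITD libraries, against at most 1.56 in their controls.

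**Figure D1:**
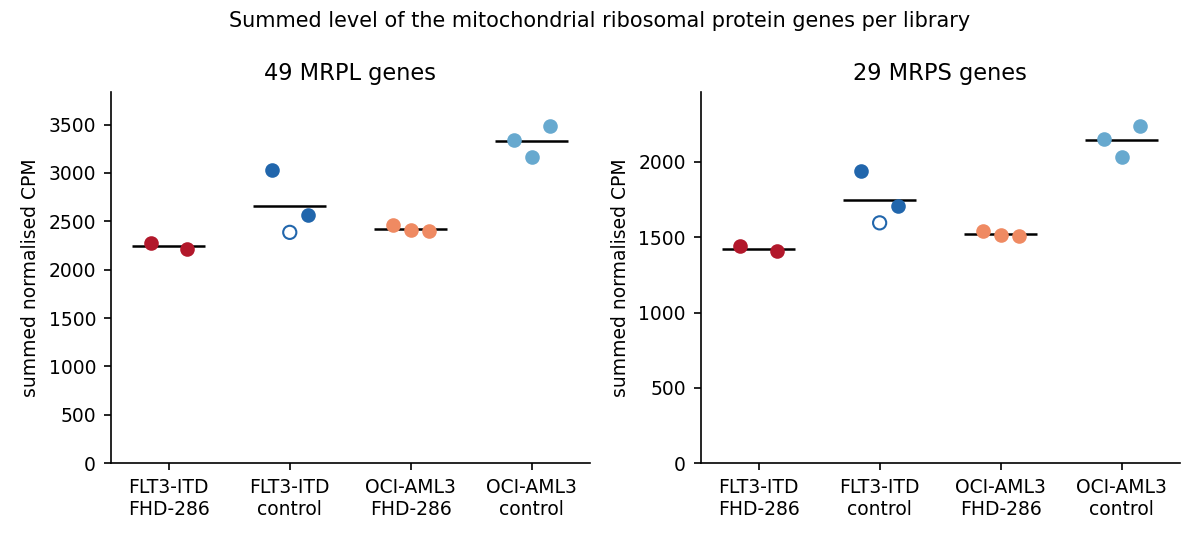
Summed normalised CPM of the 49 MRPL genes (left) and the 29 MRPS genes (right) in each library (points), by group, with the group mean as a black bar. The open circle is the library labelled FLT3-ITD control replicate 2. Treated OCI-AML3 libraries sum to 2400 to 2465 CPM for the MRPL genes, against 3164 to 3487 CPM in OCI-AML3 controls.

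Among the falls in OCI-AML3, the largest were in MRPS26, MRPL17, MRPL4, MRPS2, MRPL12, MRPS12, MRPL21, MRPS34, MRPL3 and MRPL37, among genes averaging a log2 CPM of 2 or more. MRPS26 (ENSG00000125901.5, GRCh38 chromosome 20, 3045945 to 3048254, plus strand), a small subunit protein with no bacterial counterpart, was at 34.4, 33.3 and 33.4 CPM in treated cells, against 77.9, 75.4 and 84.3 CPM in controls. The treated libraries differed from each other by about 1 CPM and lay far below every control. The log2 fold change was -1.23 (SE 0.11, adjusted p = 9.24e-06, edgeR quasi-likelihood test).

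MRPL17 (ENSG00000158042.8, chromosome 11, 6680782 to 6683401, minus strand) belongs to the proteins around the exit of the peptide tunnel. It was at 40.2, 38.5 and 38.9 CPM with FHD-286, against 79.2, 76.1 and 85.5 CPM in controls, a log2 fold change of -1.03 (SE 0.10). MRPL4, which lines part of the tunnel in bacterial ribosomes, fell by 1.00 (SE 0.11) on the log2 scale to 50.8, 48.3 and 50.8 CPM with FHD-286, against 99.1, 92.6 and 108 CPM. No treated library of either gene overlapped a control.

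MRPS2, the counterpart of a bacterial small subunit protein of the same number, averaged 42.3 ± 0.31 CPM with FHD-286 and 83.8 ± 6.47 CPM in controls (SD, n = 3 each). MRPS12, the counterpart of a protein of the decoding centre, averaged 44.3 ± 1.36 CPM with FHD-286 and 85.3 ± 9.90 CPM in controls, a log2 fold change of -0.95 (SE 0.14). Both fell close to 2-fold. MRPS34 (chromosome 16, 1771890 to 1773155, minus strand), a small subunit protein of mitochondria only, was at 105, 101 and 98.9 CPM in treated cells, against 181, 167 and 200.3 CPM in controls, a log2 fold change of -0.85 (SE 0.09). MRPL3, the counterpart of a protein close to the peptidyl transferase centre, was at 124, 125 and 120.4 CPM, against 216, 203 and 211 CPM. As the highest treated value of MRPL3 was well under the lowest control, the fall of 0.77 (SE 0.08) on the log2 scale was large relative to the replicate spread.

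The 2 genes that rose in OCI-AML3 were MRPS14 and MRPL38. MRPS14 (ENSG00000120333.4, chromosome 1, 175010789 to 175023425, minus strand), the counterpart of a bacterial small subunit protein, was at 60.2, 59.3 and 60.5 CPM in treated cells, against 49, 46 and 50.4 CPM in controls. The groups did not overlap, and the log2 fold change was 0.31 (SE 0.08, adjusted p = 0.0117 by edgeR's quasi-likelihood test). Without OCI-AML3 control replicate 2 it was 0.27, with an adjusted p of 0.0502. MRPL38, a protein of the central protuberance, had 2.69, 2.57 and 3.15 CPM with FHD-286, against 1.17, 2.23 and 1.33 CPM, a log2 fold change of 0.83 (SE 0.26). Its call was lost in 4 of the fits that left out 1 OCI-AML3 library, its level was among the 3 lowest per length, and 37.5% of its exon length is shared with AC087289.3 on the same strand, which itself had at most 0.0806 CPM in any group.

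**Figure D2:**
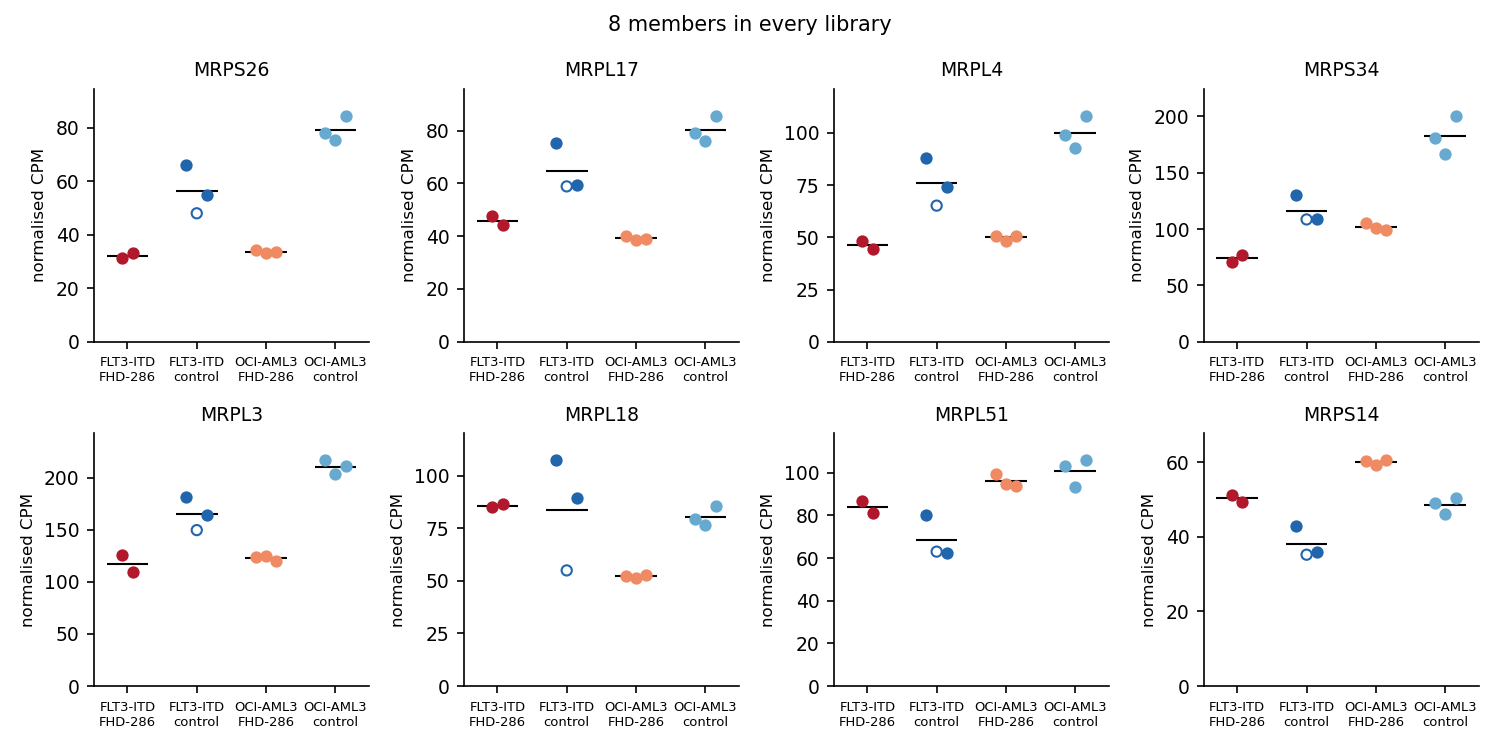
Normalised CPM of 8 genes in every library (points), by group, with the group mean as a black bar and the library labelled FLT3-ITD control replicate 2 as an open circle. MRPS26, MRPL17, MRPL4, MRPS34 and MRPL3 lie below their controls in both lines, MRPL18 does so in OCI-AML3, and MRPS14 lies above its controls in both lines.

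Falls were found in both subunits. In OCI-AML3, 37 of 49 MRPL and 24 of 29 MRPS genes fell, with medians of -0.45 and -0.50. Of the 46 genes with a bacterial counterpart 39 fell (median -0.51), and of the 32 with none listed 22 did (median -0.38). These lists were chosen from textbook knowledge of ribosome structure, and the differences between them were not tested.

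The stalk, which recruits translation factors to the large subunit, holds MRPL10, MRPL11 and MRPL12, and all 3 genes fell in OCI-AML3. MRPL12 had 16.8, 16.3 and 15.4 CPM with FHD-286, against 30.3, 30.3 and 34.2 CPM. MRPL11 fell by 0.59 and MRPL10 by 0.23 on the log2 scale, so the treated stalk genes were lowered to different degrees. Of the MRPL12 exon length 68.2% is shared with AC139530.2 on the same strand, which had 0 counts in every library.

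Around the peptide exit, where new proteins leave towards the inner membrane, MRPL17, MRPL23, MRPL24, MRPL45 and MRPL47 fell in OCI-AML3 and MRPL22 had a log2 fold change of -0.26 that did not pass the test with all libraries (adjusted p = 0.0606, edgeR). MRPL22 passed too without the library labelled FLT3-ITD control replicate 2 (adjusted p = 0.00714), so that all 6 of these genes were lower. In the central protuberance, where the large subunit touches the transfer RNAs and the small subunit, MRPL18, MRPL48, MRPL55 and MRPL58 fell, MRPL38 rose, and MRPL40 and MRPL46 passed in neither direction, at 0.01 and -0.20. MRPL58, which also acts as a peptidyl-tRNA hydrolase on stalled ribosomes, had 32.9, 32.2 and 33.3 CPM with FHD-286, against 47.3, 44.6 and 49.9 CPM.

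MRPS30 and MRPS18A carry small subunit symbols but sit in the large subunit in structures. MRPS30 fell by 0.26 on the log2 scale in OCI-AML3 and MRPS18A had a log2 fold change of -0.51 that did not pass the test (adjusted p = 0.0885, edgeR), and passed without the library labelled FLT3-ITD control replicate 2 (adjusted p = 4.6e-05). MRPS36, which has since been assigned to the alpha-ketoglutarate dehydrogenase complex rather than the ribosome, had a log2 fold change of -0.14 and was not called.

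In all, 15 of the 78 genes were not called in OCI-AML3, and 5 of these (MRPL22, MRPL33, MRPS10, MRPS11 and MRPS18A) were lower without the library labelled FLT3-ITD control replicate 2. Several of them had tight replicates. MRPL42 was at 88.3, 95 and 91.9 CPM with FHD-286, against 91.8, 89.7 and 85.9 CPM in controls, and MRPL44 was at 113, 113 and 114 CPM, against 105, 102 and 108 CPM. The log2 fold changes of 0.04 (SE 0.07) for MRPL42 and 0.11 (SE 0.06) for MRPL44 lie above the upper quartile of the family.

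Counting may split reads between genes that overlap, or leave such reads out. The counting program is not given, so low or 0 counts in an overlapping gene do not show how shared reads were handled. Another gene covers more than 10% of the exon length of 26 genes of the family. Of the 52 genes with less overlap 44 fell and 0 rose in OCI-AML3, and both genes that rose are among the 26. The 79 annotated pseudogenes of the family together held 0.0266% to 0.0599% as many counts as the family.

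In the FLT3-ITD line the family also moved downwards with FHD-286, and fewer genes passed the test. There 26 genes fell and 2 rose, when 30.5% of all genes were called, with 14.9% lower and 15.6% higher. The median log2 fold change was -0.28 over the 78 genes and -0.02 over all genes. Without the library labelled FLT3-ITD control replicate 2, 52 genes fell and 4 rose (49.0% of all genes called, 24.2% lower and 24.8% higher), and the median was -0.32. Without FLT3-ITD control replicate 1 the median was -0.17. A fit of the FLT3-ITD libraries alone called 8, all lower. The share of all genes called in that fit is not given, so the 8 are not read as a result about the family. Control replicate 1 was the highest of the 3 controls for 64 of the 78 genes. With all libraries, treated cells lay wholly below the controls in 40 genes and above them in 4, against 22.9% and 26.1% of all genes.

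MRPL12, the stalk protein that has also been described as a partner of the mitochondrial RNA polymerase, showed the largest fall in the FLT3-ITD line. It was at 12 and 12.1 CPM in treated cells, against 27.9, 19.2 and 22.1 CPM in controls, a log2 fold change of -0.94 (SE 0.14, adjusted p = 0.000773, edgeR quasi-likelihood test). The lowest control, the library labelled replicate 2, was still well above both treated libraries. MRPS26 was at 31.1 and 33.2 CPM with FHD-286, against 66, 48 and 55 CPM, a log2 fold change of -0.81 (SE 0.12).

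MRPS2, MRPL4, MRPL21, MRPS34, MRPS18B, MRPL58 and MRPS25 fell by 0.57 to 0.75 on the log2 scale in the FLT3-ITD line. MRPS18B, one of the 3 human paralogues of a single bacterial protein, was at 101 and 98.5 CPM in treated cells, against 166, 148 and 143 CPM. MRPS25 was at 30.3 and 32.3 CPM, against 45.9, 49.3 and 44.2 CPM. Neither gene's groups overlapped.

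MRPL33, the counterpart of a small bacterial large subunit protein, was at 39.7 and 32.6 CPM with FHD-286 in the FLT3-ITD line, against 54.1, 78.4 and 42.7 CPM. Its controls spread more than those of most genes, with the library labelled replicate 2 highest, and the log2 fold change of -0.69 (SE 0.20) was -0.42 without that library. It lost its call when either treated library was left out, at an adjusted p of 0.0649 and 0.185 (edgeR).

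MRPS14 rose in this line too, to 51.2 and 49.3 CPM with FHD-286, against 43, 35.2 and 35.9 CPM (log2 fold change 0.40, SE 0.09, adjusted p = 0.0075, edgeR). It was not called when treated replicate 1 was left out (adjusted p = 0.0713). MRPL34 rose to 36.6 and 39.8 CPM, against 31, 30.9 and 26.9 CPM, with a log2 fold change of 0.37 (SE 0.10), and had 0.08 in OCI-AML3. Its call was lost without either treated library, at an adjusted p of 0.0527 and 0.134.

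Across both lines 25 genes fell in both, MRPS14 rose in both, and no gene was called in opposite directions. Another 37 were called in OCI-AML3 alone, 2 (MRPL33 and MRPL34) in the FLT3-ITD line alone, and 13 in neither. With the library labelled FLT3-ITD control replicate 2 left out, 51 fell in both, 16 were called in OCI-AML3 alone, 4 in the FLT3-ITD line alone and 6 in neither. Over all genes, 21.5% were lower in OCI-AML3 and 14.9% in the FLT3-ITD line with all libraries. The share of all genes called in both lines was not counted, so these counts are not read as particular to the family. The lines share no control library. Across the 78 genes, which are not independent replicates, the log2 fold changes in the lines correlated at r = 0.80 (Spearman's rho 0.76), and across all genes at r = 0.67. The change was more negative in OCI-AML3 for 65 of the 78 genes.

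**Figure D3:**
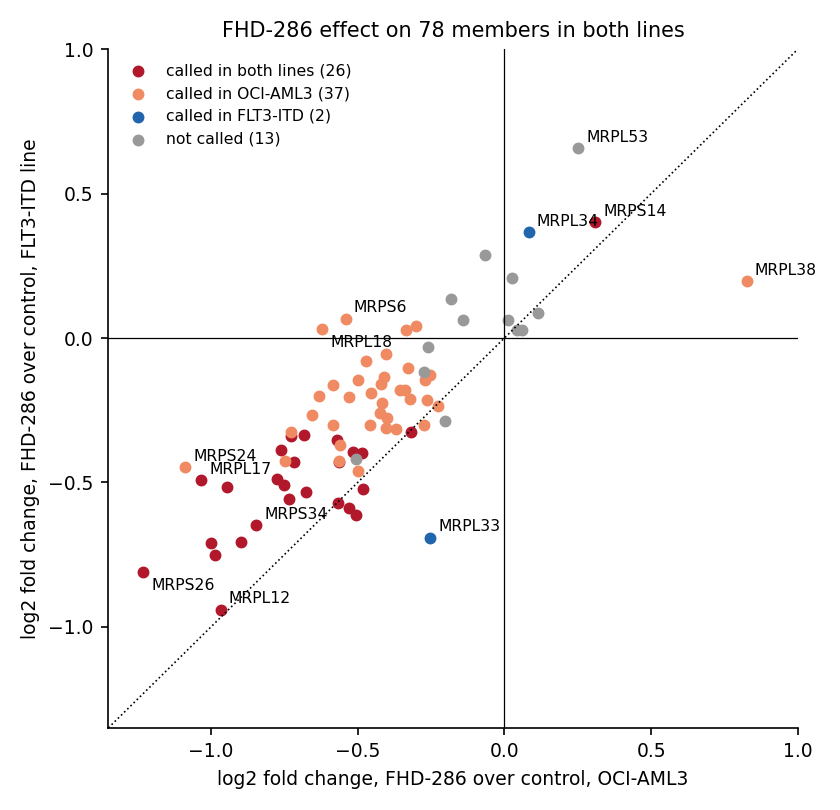
Log2 fold change with FHD-286 over control in OCI-AML3 (x axis) and in the FLT3-ITD line (y axis) for the 78 genes, coloured by the line in which they were called, with the dotted line marking equal change. Most points lie at the lower left and above the dotted line, with MRPS26 and MRPL12 lowest and MRPS14 up in both lines.

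The difference between the lines was itself tested, as the FLT3-ITD effect minus the OCI-AML3 effect. No gene of the 78 passed (edgeR quasi-likelihood test), when 3.36% of all genes were called, 1.98% with a positive and 1.38% with a negative difference, and 18 had an unadjusted p under 0.05, all 18 with a positive difference. DESeq2 called 4, all positive. The median difference was 0.19 over the 78 genes and -0.01 over all genes. Without the library labelled FLT3-ITD control replicate 2 the median was 0.14, 8 genes were called, all positive, and 17.0% of all genes were called, 9.63% positive and 7.39% negative. Without FLT3-ITD control replicate 1, 11 were called. The number of calls thus changed with the FLT3-ITD controls used and with the tool. The share of all genes is not given for the unadjusted count, for DESeq2 or for the fit without FLT3-ITD control replicate 1. Those counts are therefore not read as a result about the family. The 8 calls among 78 genes are near the share of all genes with a positive call. The difference shares its control libraries with both single-line effects and with the comparison of untreated lines.

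MRPL18, which also carries cytosolic 5S ribosomal RNA towards mitochondria, is an example. It was at 85.2 and 86.3 CPM in treated FLT3-ITD cells, against 107, 55 and 89.2 CPM in their controls, and at 52.5, 51.2 and 52.8 CPM in treated OCI-AML3 cells, against 79.3, 76.3 and 85.4 CPM in theirs. The control at 55 CPM is the library labelled replicate 2. The difference was 0.66 (SE 0.27, adjusted p = 0.24, edgeR) with it and 0.43 without it (adjusted p = 0.00684).

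Untreated FLT3-ITD cells had lower levels of the family than untreated OCI-AML3 cells. Of the 78 genes 47 were lower and 0 higher in the FLT3-ITD line, when 28.0% of all genes were called, with 13.5% lower and 14.5% higher. With all libraries 2 genes were higher at an unadjusted p under 0.05, and DESeq2 called 0 higher. The median log2 difference (FLT3-ITD over OCI-AML3) was -0.33 for the family and 0.01 for all genes, and 51 genes had controls that lay wholly below those of OCI-AML3, against 19.8% of all genes. Without the library labelled FLT3-ITD control replicate 2, 51 were lower and 5 higher, when 49.4% of all genes were called (25.4% lower, 24.1% higher), and the median was -0.28. Without OCI-AML3 control replicate 3, 29 were called, when 2914 of all genes were. A fit of the control libraries alone called 17, all lower, and the share of all genes called in that fit is not given.

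MRPS12 showed the largest such difference, at 63.9, 42.6 and 48.2 CPM in FLT3-ITD controls, against 82.9, 76.8 and 96.2 CPM in OCI-AML3 controls (log2 difference -0.73, SE 0.14, adjusted p = 0.00419, edgeR). MRPL20 was at 65.8, 50 and 57.1 CPM, against 91, 89.9 and 99.6 CPM. MRPS7, a counterpart of a bacterial protein that helps to start assembly of the small subunit, was at 90.6, 67.7 and 78.1 CPM, against 125, 122 and 134 CPM. No FLT3-ITD control of these genes reached the lowest OCI-AML3 control.

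MRPL51, of whose exon length 31.3% is shared with NCAPD2 on the opposite strand, differed between the untreated lines. It was at 80.2, 63 and 62.3 CPM in FLT3-ITD controls, against 103, 93.3 and 106 CPM in OCI-AML3 controls, a log2 difference of -0.55 (SE 0.10). In OCI-AML3 it was at 99.6, 94.8 and 93.8 CPM with FHD-286, against 103, 93.3 and 106 CPM, and these ranges overlapped. In the FLT3-ITD line it was at 86.6 and 80.9 CPM with FHD-286, against 80.2, 63 and 62.3 CPM, wholly above its controls, with a log2 fold change of 0.29 (adjusted p = 0.0694, edgeR). It was 0.23 without the library labelled FLT3-ITD control replicate 2 and passed (adjusted p = 0.0439). MRPL24, MRPS28, MRPS34, MRPL27, MRPL16 and MRPL36 were lower in untreated FLT3-ITD cells by 0.53 to 0.69 on the log2 scale. MRPS28 was low, at 3.87 to 4.24 CPM in FLT3-ITD controls and 6.11 to 6.85 CPM in OCI-AML3 controls, and shares 35.8% of its exon length with AC036214.3, which had 0 counts.

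Levels between genes were compared per kb of exon. The median over the 78 genes was 16.1 CPM per kb in treated and 19.7 CPM per kb in control FLT3-ITD cells, and 17.2 CPM per kb in treated and 23.5 CPM per kb in control OCI-AML3 cells. MRPS34, MRPL15, MRPS18B, MRPL37 and MRPL24 had the highest mean over the groups, with MRPS34 at 67.5 CPM per kb in treated and 106 CPM per kb in control FLT3-ITD cells, and at 92.7 and 166 CPM per kb in treated and control OCI-AML3 cells. MRPL53, MRPS18C, MRPL46, MRPL38 and MRPS24 had the lowest, and the last 3 of these were below 1 CPM per kb in every group. Other genes cover 45.2%, 40.2%, 11.3%, 41.1% and 23.2% of their exon length, in that order. Whether the handling of shared reads lowers these levels was not tested. MRPS24 had 0.0767 CPM per kb in treated and 0.164 CPM per kb in control OCI-AML3 cells, which is 0.161 to 0.233 CPM and 0.311 to 0.521 CPM per library. It fell by 1.09 on the log2 scale (SE 0.33) at this low level, and overlaps the read-through gene URGCP-MRPS24, which had 0 counts. The order of the genes was much the same in all groups, with Spearman's rho between 0.94 and 0.98 over the 78 genes for the 6 pairs of groups.

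**Figure D4:**
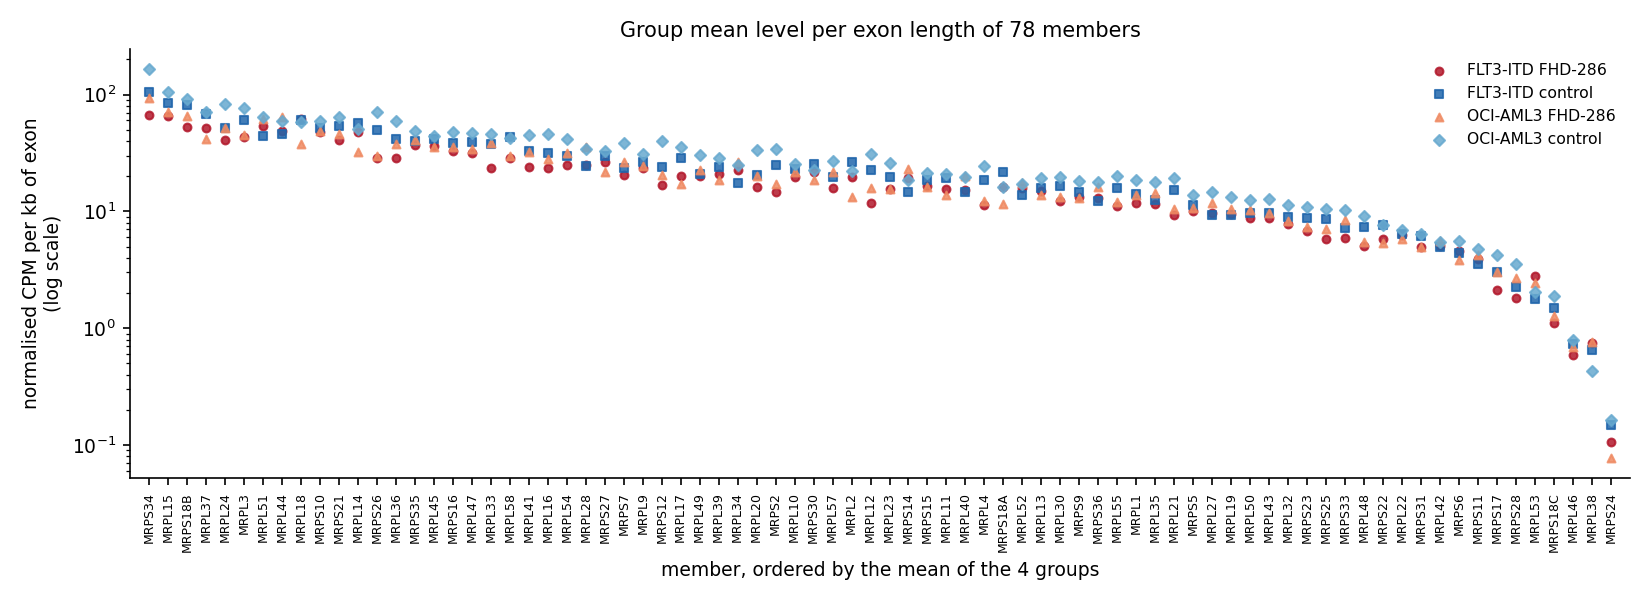
Group mean of normalised CPM per kb of exon (log axis) for the 78 genes, ordered by the mean of the 4 groups, with 1 symbol per group. The levels run from 166 CPM per kb for MRPS34 in OCI-AML3 controls down to under 1 CPM per kb for MRPL46, MRPL38 and MRPS24, and the OCI-AML3 controls are the highest group for 63 of the 78 genes.

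The promoters of the family were searched for motifs of factors known to act on nuclear genes for mitochondria. Such genes are classically bound by NRF1, by the ETS-family dimer GABP and by YY1, and MYC binds E-boxes. RefSeq windows on GRCh38.p14, from 250 bases before to 50 after the start of the gene, were matched for 69 of the 78 genes. Searching both strands for exact letters, CCGGAAG (ETS) was found in 29 of 69 windows (42.0%), in 10.7% of all 27305 windows and in 18.8% of the 10716 windows of protein-coding genes tested. The YY1 motif searched, whose letters are the last run of capitals in the MRPS18B window, was in 13 (18.8%), against 1.28% and 2.77%. GCATGCGC (core of the NRF1 motif) was in 6 (8.70%), against 3.27% and 5.38%, and the full NRF1 motif, the first run of capitals in the MRPL17 window, which contains that core on both strands, in 1.

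CACGTG (E-box) was in 6 (8.70%), against 7.43% and 9.89%, and TGACGTCA (cyclic AMP response element) in 0, against 1.98% and 3.20%. GGGCGG (SP factors) was in 42 (60.9%), against 44.6% and 69.0%. The 39 ETS matches had a median position of 22 bases before the start, with 22 of them within 60 bases before it, and 10 of the 13 YY1 matches lay after the start, up to position 36. In OCI-AML3, 30 of the 42 genes with a match to the ETS, NRF1 core, E-box or YY1 letters fell (median -0.44), and 23 of the 27 without one did (median -0.50). A match is a description of the letters in these windows and shows no binding.

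Windows of 6 genes are shown 5′ to 3′ on the strand of the gene, with matches to those 4 motifs in capitals. They are the gene with the largest fall (MRPS26, chr20:3045802-3046101, plus strand, 1 ETS match), the one with the full NRF1 motif (MRPL17, chr11:6683291-6683590, minus strand), the highest per length (MRPS34, chr16:1773085-1773384, minus strand, 3 ETS matches) and one with NRF1 core and YY1 matches (MRPS18B, chr6:30617590-30617889, plus strand). MRPL12 (chr17:81703117-81703416, plus strand), which fell in both lines, and MRPS14 (chr1:175023376-175023675, minus strand), which rose in both, hold no match.
MRPS26: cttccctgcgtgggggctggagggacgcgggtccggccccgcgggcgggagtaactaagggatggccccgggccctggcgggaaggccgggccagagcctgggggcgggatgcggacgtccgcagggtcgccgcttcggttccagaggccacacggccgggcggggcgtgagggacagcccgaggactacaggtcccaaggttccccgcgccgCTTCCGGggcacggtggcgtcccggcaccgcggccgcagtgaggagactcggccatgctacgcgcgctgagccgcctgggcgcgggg
MRPL17: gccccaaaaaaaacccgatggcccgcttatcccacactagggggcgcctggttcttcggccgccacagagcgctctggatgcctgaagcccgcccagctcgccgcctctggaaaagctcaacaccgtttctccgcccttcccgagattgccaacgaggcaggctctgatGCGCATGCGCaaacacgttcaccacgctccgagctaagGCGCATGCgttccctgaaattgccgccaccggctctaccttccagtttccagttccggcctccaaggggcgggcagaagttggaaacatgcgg
MRPS34: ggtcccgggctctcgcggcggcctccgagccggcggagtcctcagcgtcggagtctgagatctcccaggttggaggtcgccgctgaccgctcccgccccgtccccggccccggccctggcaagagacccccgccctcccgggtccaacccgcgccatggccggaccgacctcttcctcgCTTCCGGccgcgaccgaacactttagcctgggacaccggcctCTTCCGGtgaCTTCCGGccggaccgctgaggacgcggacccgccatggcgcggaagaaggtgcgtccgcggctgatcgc
MRPS18B: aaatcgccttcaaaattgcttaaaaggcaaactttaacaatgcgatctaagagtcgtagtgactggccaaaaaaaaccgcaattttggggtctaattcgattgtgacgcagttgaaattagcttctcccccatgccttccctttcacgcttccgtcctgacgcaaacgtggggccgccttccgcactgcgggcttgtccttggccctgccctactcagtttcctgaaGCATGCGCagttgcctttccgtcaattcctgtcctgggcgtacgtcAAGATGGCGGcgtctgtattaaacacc
MRPL12: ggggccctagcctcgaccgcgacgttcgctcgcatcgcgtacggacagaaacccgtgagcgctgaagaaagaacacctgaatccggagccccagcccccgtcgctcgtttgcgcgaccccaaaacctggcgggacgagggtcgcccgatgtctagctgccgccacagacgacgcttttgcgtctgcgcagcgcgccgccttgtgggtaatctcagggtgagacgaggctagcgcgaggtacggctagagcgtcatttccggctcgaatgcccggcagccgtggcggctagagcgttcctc
MRPS14: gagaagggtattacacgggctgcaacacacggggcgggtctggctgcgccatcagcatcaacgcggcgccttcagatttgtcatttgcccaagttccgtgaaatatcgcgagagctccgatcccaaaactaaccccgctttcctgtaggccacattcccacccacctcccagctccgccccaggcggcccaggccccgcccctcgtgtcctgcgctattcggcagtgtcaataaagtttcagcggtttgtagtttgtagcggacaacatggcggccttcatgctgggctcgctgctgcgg

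Many of these genes start next to another gene. A protein-coding gene on the opposite strand starts within 1000 bases in a divergent layout for 29 of the 78 genes (37.2%), against 17.3% of the 13299 protein-coding genes tested. In 13 of the 29 the 5′ ends of both genes overlap. Of the 28 such neighbours that were tested, 12 fell and 6 rose in OCI-AML3, when 21.5% of all genes were lower and 19.8% higher. Their median log2 fold change was -0.23, against 0.01 over all genes. MRPL46 and MRPS11 are neighbours of each other, 34 bases apart, so both are among the 28. Neither was called in OCI-AML3 with all libraries. MRPL36 and NDUFS6, a complex I subunit 34 bases away, both fell by 0.68 on the log2 scale. MRPL47 fell by 0.46 and its neighbour NDUFB5, another complex I subunit 36 bases away, rose by 0.53. MRPL43 fell by 0.41 and TWNK, the helicase of mitochondrial DNA, by 1.14.

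The ribosome also holds proteins without an MRPL or MRPS symbol. DAP3, PTCD3, AURKAIP1, GADD45GIP1 and CHCHD1 all fell in OCI-AML3, by 0.34 to 0.51 on the log2 scale, and DAP3, PTCD3 and GADD45GIP1 fell in the FLT3-ITD line, with AURKAIP1 as well when the library labelled FLT3-ITD control replicate 2 was left out. DAP3, a GTP-binding small subunit protein first described in cell death, was at 204 and 197 CPM in treated FLT3-ITD cells, against 287, 226 and 253 CPM, and at 221, 211 and 208 CPM in treated OCI-AML3 cells, against 279 to 303 CPM in their 3 controls. Neither set of ranges overlapped.

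The next lists are read against 14.9% of all genes lower in the FLT3-ITD line and 21.5% in OCI-AML3, and without the library labelled FLT3-ITD control replicate 2 against 24.2% and 29.8%. Of 31 assembly factors 11 fell and 0 rose in the FLT3-ITD line (median -0.26), and 19 fell and 1 rose in OCI-AML3 (median -0.44). Without that library 19 fell and 1 rose in the FLT3-ITD line, and 24 fell and 1 rose in OCI-AML3. MRM2, a methyltransferase of the large ribosomal RNA, was at 48.5 and 46 CPM in treated FLT3-ITD cells, against 81.2, 64.7 and 73.2 CPM, and at 52.5, 50.5 and 49.9 CPM in treated OCI-AML3 cells, against 100.4, 95.4 and 111 CPM. The DEAD-box helicase DDX28 fell by 0.73 and 0.87 on the log2 scale in the FLT3-ITD line and OCI-AML3. YBEY, an endonuclease-like factor, rose in OCI-AML3 to 24.3, 23 and 22.7 CPM, against 13.9, 14.3 and 13.7 CPM.

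Of 21 genes listed as translation factors, 9 fell in the FLT3-ITD line and 13 in OCI-AML3, with none higher in either. The list also holds modifiers of mitochondrial transfer RNAs, such as GTPBP3 and MTO1. Leaving out the library labelled FLT3-ITD control replicate 2, 13 and 14 fell, and MTO1 was higher in OCI-AML3. TUFM, the elongation factor that brings transfer RNAs to the ribosome, was at 275 and 263 CPM in treated FLT3-ITD cells, against 442, 407 and 383 CPM, and at 348, 338 and 338 CPM in treated OCI-AML3 cells, against 555, 531 and 624 CPM. MRRF, the ribosome recycling factor, fell by 0.56 and 0.68 on the log2 scale in the FLT3-ITD line and OCI-AML3. Of 17 aminoacyl-tRNA synthetases of mitochondria 6 fell in the FLT3-ITD line and 13 in OCI-AML3, again with none higher. Without that library the counts were 14 and 15, and the medians were -0.30 and -0.49, against -0.26 and -0.49 with all libraries.

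The messages that the ribosome translates are encoded in mitochondrial DNA. Of the 13 mitochondrially encoded mRNAs none was called in either line by edgeR's quasi-likelihood test, with a median of -0.38 in the FLT3-ITD line and 0.11 in OCI-AML3, and neither of the 2 mitochondrial ribosomal RNAs was called. At an unadjusted p under 0.05 there were 0 such mRNAs in either line, and 1 of the 2 ribosomal RNAs in the FLT3-ITD line, where MT-RNR1 had a log2 fold change of -0.65, or -0.25 when the library labelled FLT3-ITD control replicate 2 was left out. The FLT3-ITD median was 0.01 without the library labelled FLT3-ITD control replicate 2, in which these mRNAs took 7.01% of counts, against 3.64% and 3.98% in the other controls of that line. Of the 13 mRNAs, 3 rose in OCI-AML3 when that library was left out of the fit. Of 12 genes for mitochondrial transcription and genome copying 4 fell and 1 rose (MGME1) in the FLT3-ITD line, and 6 fell and 0 rose in OCI-AML3. Without that library these were 5 and 1, and 8 and 1. TFAM, which packs mitochondrial DNA and acts in its transcription, and POLRMT, the mitochondrial RNA polymerase, were called in neither line with all libraries. TFAM was lower in OCI-AML3 without that library (log2 fold change -0.24).

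Among nuclear-encoded respiratory chain subunits, 4 of 37 complex I genes fell and 2 rose in the FLT3-ITD line, and 8 fell and 1 rose in OCI-AML3. With all libraries this is near or under the share of all genes. Leaving out the library labelled FLT3-ITD control replicate 2, these were 10 and 5, and 17 and 4. The 17 of 37 lower in OCI-AML3 then lie above the 29.8% of all genes lower in that fit. Of 12 cytochrome c oxidase genes tested 1 fell in the FLT3-ITD line and 6 in OCI-AML3, and of 18 ATP synthase genes 3 and 13 did. Again without it, 5 and 6 oxidase genes and 7 and 15 ATP synthase genes fell. The mitochondrial chaperones and proteases fell in 8 of 13 and in 11 of 13, and without that library in 9 and 11. Of the cytosolic ribosomal protein genes, 81 of 84 tested, 52 fell and 1 rose in the FLT3-ITD line (median -0.43), and 27 fell and 0 rose in OCI-AML3 (median -0.25). Without the library labelled FLT3-ITD control replicate 2 those counts were 58 and 57 lower.

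**Figure D5:**
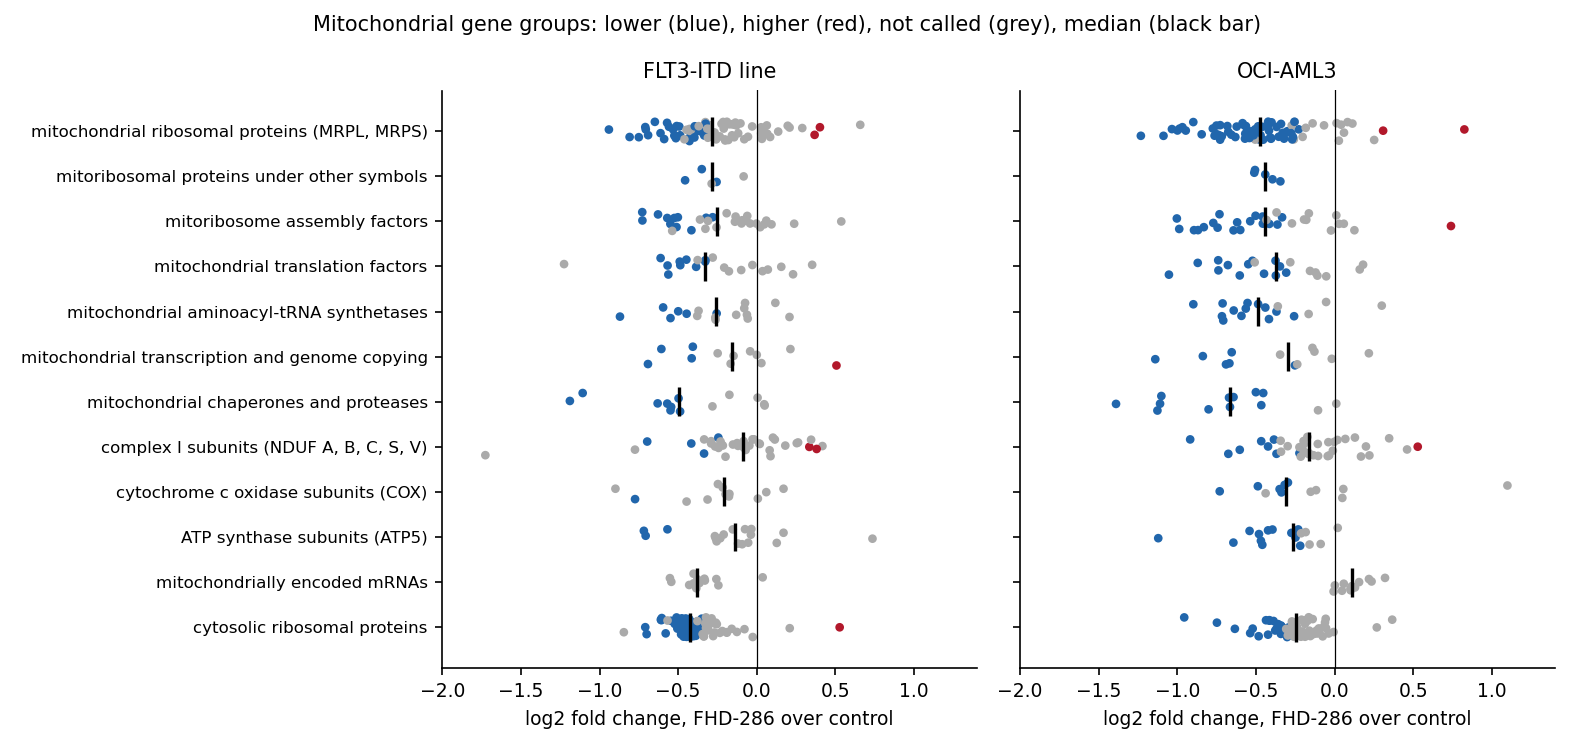
Log2 fold change with FHD-286 over control for each gene (points) in 12 groups of genes, in the FLT3-ITD line (left) and OCI-AML3 (right), with lower calls in blue, higher calls in red, genes not called in grey and the group median as a black bar. The median of the 78 MRPL and MRPS genes is -0.28 in the FLT3-ITD line and -0.48 in OCI-AML3, and the mitochondrially encoded mRNAs have no call in either line.

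Of 12 regulators of mitochondrial gene expression, 11 were tested, and 4 fell and 1 rose in both lines. With the library labelled FLT3-ITD control replicate 2 left out, 5 fell and 2 rose in the FLT3-ITD line, and 6 fell and 2 rose in OCI-AML3. The 5 genes called with all libraries were called in both lines either way. MYC, the growth-driving transcription factor that also acts on mitochondrial genes, was at 200.1 and 177 CPM in treated FLT3-ITD cells, against 639, 758 and 597 CPM, and at 223, 233 and 218 CPM in treated OCI-AML3 cells, against 813, 781 and 871 CPM. The log2 fold changes were -1.82 and -1.87. The coactivators PPRC1 and PPARGC1B fell by 0.39 and 0.37 on the log2 scale in the FLT3-ITD line and by 0.77 and 0.69 in OCI-AML3, and the nuclear receptor ESRRA fell in both. GABPA, the DNA-binding part of GABP, rose in both, with log2 fold changes of 0.44 and 0.29. NRF1 and YY1 were called in neither line either way, and PPARGC1A, at no more than 0.117 CPM, was not tested. Whether any of these levels bears on the ribosomal protein genes was not tested.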

How the data were processed

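The authors deposited raw counts of 58037 Ensembl genes in 11 libraries, in whole numbers. STAR and hg38 are named per the submitters' processing notes. Which program counted reads, with which strand setting and annotation, is not given in the sources used here, and reads of overlapping genes cannot be told apart. GENCODE release 29 held 57388 of the identifiers, and 56948 had a symbol.

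The filterByExpr function of edgeR 4.0.16 (R 4.3.3), at a minimum count of 10 and a minimum total of 15, kept 18908 genes. After TMM scaling, every library entered 1 quasi-likelihood fit, in which each group had its own mean and 7 residual degrees of freedom were left. It tested FHD-286 against control within each line, the FLT3-ITD effect minus the OCI-AML3 effect, and the controls of both lines against each other. Tests were two-sided, with Benjamini-Hochberg adjustment over the whole table and a threshold of 0.05. The SE is approximate, the absolute log2 fold change over the square root of the F statistic. At these depths 3 counts correspond to 0.0366 to 0.0548 CPM, which covers counting error only. Levels per kb used the union of exons. The model was first tested on simulated counts.

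Named genes were the 10 called genes of largest change in each direction (6 for the difference) at a mean log2 CPM of 2 or more, called genes of the minority direction, the 5 highest and 5 lowest per length, the genes of the stalk, central protuberance and peptide exit, and, in related lists, those with the smallest p. Others, such as MRPL42, MRPL44, MRPS36 and MRPL18, were picked after their values were seen. The family, lists and tests were chosen with earlier results of these data known. Residuals of same-numbered libraries correlated at -0.11 to 0.19, and the main fit used no pairing. Differently numbered libraries were not compared in this way, so whether the numbers pair the libraries was not decided. Alternatives were other scalings and filters, DESeq2 1.42.0, fits restricted to the groups compared, a replicate block, and omission of each library. List values without the library labelled FLT3-ITD control replicate 2, and counts by exon overlap, were added after seeing the data.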

Additional observations from a re-analysis of the deposited data

Results flagged for a closer look

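Without the library labelled FLT3-ITD control replicate 2, the FHD-286 effect differed between the lines for 8 of the 78 genes, by edgeR's test of the difference itself (FLT3-ITD effect minus OCI-AML3 effect, adjusted p under 0.05, when 17.0% of all genes were called, 9.63% with a positive difference). The count is thus near the share of all genes with a positive call and says nothing particular about the family. The log2 differences were 0.48 for MRPL17, 0.43 for MRPL18, 0.38 for MRPL19, 0.36 for MRPL24, 0.37 for MRPL39, 0.32 for MRPS26, 0.33 for MRPS27 and 0.41 for MRPS6. All 8 were positive, which is a smaller fall or no fall in the FLT3-ITD line. With all libraries none of the 8 passed.

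MRPL19 was at 44 and 43 CPM in treated FLT3-ITD cells, against 41.3, 44 and 42.6 CPM in their controls, and at 46.4, 48.5 and 49.7 CPM in treated OCI-AML3 cells, against 64.3, 60.7 and 57.3 CPM in theirs. MRPS6 was at 20.6 and 18.8 CPM in treated FLT3-ITD cells, against 22.2, 13.3 and 20.8 CPM, and at 16.8, 15.8 and 17.1 CPM in treated OCI-AML3 cells, against 25, 22.9 and 24.3 CPM. The 13.3 CPM of MRPS6 is the library labelled replicate 2.

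With all libraries the difference was called for GTPBP3, a modifier of mitochondrial transfer RNAs, at 0.48 (adjusted p = 0.0454, edgeR), and for MARS2, the mitochondrial methionyl-tRNA synthetase, at -0.61 (adjusted p = 0.0180). MARS2 was at 20.1 and 21.7 CPM in treated FLT3-ITD cells, against 36.5, 41.4 and 36.7 CPM, and at 49.5, 51.5 and 48.8 CPM in treated OCI-AML3 cells, against 59.4, 56.9 and 62.8 CPM. It fell in both lines, and more in the FLT3-ITD line.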

How the results depend on the processing

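With library totals the family's median log2 fold change was -0.32 in OCI-AML3 and -0.17 in the FLT3-ITD line, when the median of all genes was 0.17 and 0.09. DESeq2 called 4 genes of the family for the difference between lines, against 0. A fit of only the groups compared called 8 in the FLT3-ITD line, against 28, and 17 between the untreated lines, against 47. The cause was not tested, and the share of all genes called in those fits is not given.

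Leaving out 1 library at a time, the number of the 78 genes called ranged from 47 to 68 in OCI-AML3, from 12 to 56 in the FLT3-ITD line, from 0 to 11 for the difference and from 29 to 59 between the untreated lines. The medians ranged from -0.49 to -0.43, from -0.32 to -0.17, from 0.14 to 0.30 and from -0.44 to -0.28 in that order. The number of all genes called ranged from 6132 to 10973, from 2908 to 9140, from 105 to 3177 and from 2914 to 9223. The 4 medians of the family kept their sign in each of these fits, but the FLT3-ITD median of the mitochondrially encoded mRNAs was -0.38 with all libraries and 0.01 without that line's control replicate 2, and that of the regulators was 0.07 and -0.02. The library labelled FLT3-ITD control replicate 2 moved the common coefficient of variation, which was 0.193 with it and 0.0652 without it.

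With the replicate block 60, 25, 0 and 46 genes of the family were called, with medians of -0.48, -0.26, 0.20 and -0.34. Whether the replicate numbers pair the libraries was not decided. MRPS24, MRPL38, MRPL46 and MRPL53 had few CPM, and other genes cover more than 10% of the exon length of each. The 2 treated FLT3-ITD libraries limit that line's tests.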

Other observations

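Of the 5 genes of the family that were higher in untreated FLT3-ITD than in untreated OCI-AML3 cells without the library labelled FLT3-ITD control replicate 2, 4 lie on chromosome 6. These are MRPL2, MRPL14 and MRPS18A, which sit between 43054029 and 44127457, and MRPL18, and the remaining gene is MRPS30 on chromosome 5. They were chosen after their values were seen. MRPS18A had a log2 difference of 0.66, MRPL2 of 0.47, MRPL14 of 0.45, MRPL18 of 0.29 and MRPS30 of 0.24, when the family's median was -0.28. MRPL2 had 87.3 CPM in replicate 1, 70.1 CPM in replicate 3 and 44.2 CPM in the library labelled replicate 2 of the FLT3-ITD controls, against 57.4, 52.2 and 60.5 CPM in OCI-AML3 controls. MRPL14 was at 74.1, 59.2 and 31.9 CPM in the same FLT3-ITD libraries, against 48, 47 and 51.7 CPM.

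Other genes of chromosome 6 were higher as well. Over the 530 genes of chromosome 6 that averaged a log2 CPM of 2 or more, the median log2 difference (untreated FLT3-ITD over untreated OCI-AML3, without the library labelled replicate 2) was 0.29, against -0.08 over all 10522 such genes. Chromosome 18 had a median of 0.32 over 149 genes and chromosome 21 one of -0.50 over 113 genes, and the other chromosomes lay between -0.13 and 0.00. With FHD-286 the chromosome 6 genes MRPL2, MRPL14 and MRPS18A fell in the FLT3-ITD line without that library, by 0.65, 0.54 and 0.67 on the log2 scale.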
